A study of Mus musculus with 1507 samples.

Results

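The DNA methyltransferase genes Dnmt1, Dnmt3a, Dnmt3b and Dnmt3l and the cofactor gene Uhrf1 were followed in mouse ES cells and in primitive endoderm (PrE) cells made from them. They were taken by gene name from the deposited gene models, 5 genes of 47643, and they carry 48 of the 115125 annotated transcripts. The cells were 5G6GR, an EB5-derived ES line that carries a Gata6 transgene fused to the glucocorticoid receptor with a puromycin resistance gene, so that dexamethasone sends them towards PrE. In the differentiation medium dexamethasone took the place of the blasticidin in the ES medium, so treated and untreated cells differ in both. Single cells were sequenced by RamDA-seq, a full-length method that primes total RNA with not-so-random primers and oligo-dT. The time course held 92, 91, 93, 87 and 93 cells at 0, 12, 24, 48 and 72 h of dexamethasone. Untreated cells were also sorted by DNA content into G1 (93 cells), S (91) and G2M (93), beside 9 wells of averaged G1 lysate. On 4 plates named B1, B2, E1 and E2, untreated ES cells and cells treated for 72 h (PrE) were sorted side by side into 384 wells, and 1 microfluidic C1 chip gave 16 ES and 39 PrE cells. Bulk and diluted ES RNA was sequenced as rRNA-depleted (rdRNA-seq), poly(A)-selected (paRNA-seq), RamDA-seq and SMART-Seq v4 libraries. All groups share the transgene and the single parental line, so line and treatment effects cannot be compared across lines.

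Levels of cells are given as TPM, which are scaled by transcript length and to a common total per cell. A transcript at 0.1 TPM or more counted as detected. Time course and phase cells had 19656 to 44634 detected transcripts. On the plates, 30 of the 384 wells fell over 1.5 interquartile ranges below the lower quartile of detected transcripts of their plate. Of these wells 22 had under 5000 detected transcripts. The quartiles of a plate were taken over its ES and PrE wells together. In 21 or 22 of these 30 wells each member was under 0.1 TPM, but 1 ES well on plate B2 with 41 detected transcripts was listed at 14850 TPM of Uhrf1. Plate results are therefore given with and without these 30 wells. Over the 14 PrE markers the summed TPM of a cell ranged from 148 to 641.7 at 0 h and from 1495 to 16690 at 72 h, without overlap. Over the 10 ES markers it ranged from 1941 to 4870 at 0 h and from 481.3 to 2658 at 72 h, which overlapped. Its mean was 2480 at 48 h against 2670 at 0 h, so the summed ES list did not separate the times. A sum weighs abundant genes most: on the plates Dppa5a alone averaged 2080 TPM in ES and 2935 in PrE cells. Of the 10 ES markers 8 were called lower in PrE cells there and 2, Dppa5a among them, were not called. Gata6 itself read 44.9 TPM at 0 h, and its transgene and endogenous transcripts cannot be told apart here. Fibroblast or feeder markers summed to at most 53.8 TPM in any cell of the course and trophoblast markers to at most 83.9. Markers of 2-cell-like cells reached 1849 TPM in 1 cell at 48 h, and their part in the 48 h levels was not tested.

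DNA methylation is kept and set by separate enzymes. Uhrf1 binds hemimethylated CpG sites behind the replication fork and brings in Dnmt1, which copies the parental pattern to the new strand. Dnmt3a and Dnmt3b methylate unmodified DNA, and Dnmt3l, which has no catalytic activity of its own, stimulates both. Extraembryonic lineages such as PrE stay low in methylation. The ES cells here were grown with fetal calf serum and leukemia inhibitory factor, and their methylation was not measured.

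The members lie on 5 chromosomes of the mm10 assembly, and several of them start at more than 1 place. Uhrf1 (ENSMUSG00000001228.14; chr17:56303321-56323486, plus strand) has 7 models, 4 of them full length, of which Uhrf1-001 and Uhrf1-002 begin at an upstream first exon and Uhrf1-003 and Uhrf1-004 at a downstream first exon. The promoter windows of both starts are shown because their outputs diverged in PrE cells. They run from 250 bases before to 50 bases after a RefSeq start (build GRCm38.p6, plus strand), with capitals marking matches on either strand to 6 words. The E2F sites searched were TTTCGCGC and also TTTGGCGC. The GC box was searched as GGGCGG and the box of that name as CCAAT. The E-box was searched as CACGTG and the GATA site as AGATAA. The upstream window is chr17:56303087-56303386 and the downstream window chr17:56304063-56304362. The upstream window was matched to Uhrf1-001 only and ends before the annotated start of Uhrf1-002 at 56303400. Most of the upstream output was assigned to Uhrf1-002: in ES cells on the plates it averaged 45.2 TPM and Uhrf1-001 1.96 TPM.
Uhrf1 upstream start: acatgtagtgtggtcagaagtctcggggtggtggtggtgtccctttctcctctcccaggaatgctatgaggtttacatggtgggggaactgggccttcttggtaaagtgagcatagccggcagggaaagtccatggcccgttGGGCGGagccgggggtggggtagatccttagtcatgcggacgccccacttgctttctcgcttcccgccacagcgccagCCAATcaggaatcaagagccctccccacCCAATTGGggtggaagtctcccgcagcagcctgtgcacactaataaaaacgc
Uhrf1 downstream start: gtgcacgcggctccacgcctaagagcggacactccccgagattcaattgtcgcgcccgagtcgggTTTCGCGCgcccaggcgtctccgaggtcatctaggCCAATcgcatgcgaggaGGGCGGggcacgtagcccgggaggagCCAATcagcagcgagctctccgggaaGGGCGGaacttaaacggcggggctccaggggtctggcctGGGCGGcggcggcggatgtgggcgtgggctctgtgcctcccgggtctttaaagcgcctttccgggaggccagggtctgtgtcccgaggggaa

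The downstream Uhrf1 window held 33 CpG and an E2F match at -185, whereas the upstream window held 12 CpG and no match to either E2F word. Over 32851 promoter windows of the same length the median was 7 CpG, TTTCGCGC was found in 0.323% and TTTGGCGC in 0.514%. The GC box was found in 35.7% of windows, the CCAAT box in 37.4%, the E-box in 7.15% and the GATA word in 11.2%. The motifs were chosen after the levels were known, and a match describes letters only. Adjacent CCAAT and ATTGG matches may share bases, as they do at -2 and 2 of the upstream window. Promoter windows were found for 5 of 5 members, 12 in all, and 1 Dnmt1 window held both E2F words, TTTCGCGC at -219 and TTTGGCGC at 34. That window belongs to Dnmt1-203, at 1.06 TPM in ES and 0.946 in PrE cells on the plates, and the windows of Dnmt1-201 and Dnmt1-202, the main models, held neither word.

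Uhrf1 models also differ by 24 coding bases inside an exon boundary at chr17:56313041-56313064, present in Uhrf1-001 and Uhrf1-004 and absent from Uhrf1-002 and Uhrf1-003. The stretch is given with 30 bases on each side, the added bases in capitals, from the GENCODE transcripts of the same identifier, version and length as the deposited models.
Uhrf1 with the added bases: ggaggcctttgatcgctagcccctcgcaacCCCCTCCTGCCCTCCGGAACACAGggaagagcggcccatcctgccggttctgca
Uhrf1 without them: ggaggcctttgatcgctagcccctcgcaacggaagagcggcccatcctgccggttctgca

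Dnmt3a (ENSMUSG00000020661.15; chr12:3806007-3914443, plus strand) has 18 models. Dnmt3a-001 and Dnmt3a-006 begin at the CpG-rich upstream starts and encode the long protein, with 2724 coding bases. Dnmt3a-005 and Dnmt3a-201 begin at an internal start and encode the short protein, Dnmt3a2 in the literature, with 2067 coding bases. Windows of an upstream start (chr12:3806910-3807209, 47 CpG) and of the internal start (chr12:3891494-3891793, 18 CpG) are shown because the balance between them shifted over the course; capitals mark the same words.
Dnmt3a upstream start: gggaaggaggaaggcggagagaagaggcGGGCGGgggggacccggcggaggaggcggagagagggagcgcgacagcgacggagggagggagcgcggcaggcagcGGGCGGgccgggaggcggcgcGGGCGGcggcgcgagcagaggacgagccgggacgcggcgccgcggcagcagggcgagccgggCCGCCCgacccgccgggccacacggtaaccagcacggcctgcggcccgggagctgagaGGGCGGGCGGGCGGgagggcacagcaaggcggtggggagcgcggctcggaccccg
Dnmt3a internal start: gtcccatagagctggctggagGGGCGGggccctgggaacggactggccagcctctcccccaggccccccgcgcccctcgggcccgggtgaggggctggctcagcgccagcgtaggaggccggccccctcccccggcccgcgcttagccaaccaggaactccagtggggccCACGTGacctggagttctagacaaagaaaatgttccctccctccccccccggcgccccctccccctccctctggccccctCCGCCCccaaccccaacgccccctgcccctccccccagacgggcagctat

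Dnmt3b (ENSMUSG00000027478.15; chr2:153649450-153687730, plus strand) has 12 models, 9 of which start within a few bases of each other. They differ in a 60-base inner exon (chr2:153670849-153670908) and in a pair of exons of the catalytic domain (chr2:153683608-153683677 and chr2:153684359-153684477) of 70 and 119 bases, 189 together, without which the protein is known to be inactive. These coding exons are shown whole, in capitals. The catalytic-domain pair separates the catalytically complete forms from the others, and the inner exon does not.
Dnmt3b inner exon: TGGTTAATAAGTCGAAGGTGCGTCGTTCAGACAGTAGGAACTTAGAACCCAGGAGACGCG
Dnmt3b first catalytic-domain exon: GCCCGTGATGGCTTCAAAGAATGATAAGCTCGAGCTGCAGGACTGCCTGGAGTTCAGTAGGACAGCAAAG
Dnmt3b second catalytic-domain exon: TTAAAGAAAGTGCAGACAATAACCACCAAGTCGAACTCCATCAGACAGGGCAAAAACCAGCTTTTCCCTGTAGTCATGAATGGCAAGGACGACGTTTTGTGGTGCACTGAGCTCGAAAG

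Dnmt1 (ENSMUSG00000004099.15; chr9:20907206-20959888, minus strand) has 3 models with separate first exons. Dnmt1-201 has 4860 coding bases. Dnmt1-202, which begins farthest upstream, has 4503 and Dnmt1-203 has 4506, so their coding parts are shorter. Dnmt3l (ENSMUSG00000000730.13; chr10:78041947-78063622, plus strand) has 8 models. The quantification ignored strand, so reads of Dnmt3aos, Dnmt3bos and Aire, which overlap Dnmt3a, the start of Dnmt3b and the start of Dnmt3l on the other strand, and of Mir7081 within Dnmt1 cannot be told apart from the members' own. The pseudogene Dnmt3l-ps1, which could share reads with Dnmt3l, was at 0.2 to 0.6 TPM on average at each time.

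Over the time course the maintenance pair went down together while the de novo genes stood highest at 12 h and came back towards their starting levels. The labels of these cells give a time and a well and name no culture or plate. Each time was therefore taken as 1 sample of cells. Time and batch cannot be told apart, and the values below describe cells without a test. At 0 h Uhrf1 had the highest mean TPM of the members and Dnmt3b the lowest, close below Dnmt3a (29.2 and 33.2 TPM). The order of these 2 depends on the measure, since Dnmt3a TPM lay mostly in short models, described below. In rdRNA-seq of 1 µg ES RNA the median estimated count was 448 for Dnmt3a and 848 for Dnmt3b.

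Uhrf1 averaged 193.8 ± 66.7 TPM at 0 h (SD over cells; lowest 72.1, median 182.6, highest 364.5), 119.2 ± 60.04 at 12 h, 103.5 ± 54.6 at 24 h, 81.9 ± 42.5 at 48 h and 69.9 ± 34.2 at 72 h (lowest 2.53, median 67.6, highest 204.5). The mean at 72 h was 0.36 times that at 0 h. At 72 h 55 of 93 cells lay below the lowest 0 h cell and 1 lay above the 0 h median. The step from 0 to 12 h exceeded 1 SD between cells and the later steps did not. Dnmt1 averaged 55.5 ± 12.2 TPM at 0 h (29.2, 53.97 and 93.5 as lowest, median and highest), 48.4 ± 15.4 at 12 h, 45.9 ± 13.3 at 24 h, 42.1 ± 17.1 at 48 h and 38.7 ± 15.6 at 72 h (5.82, 37.5 and 94.99). Its mean at 72 h was 0.70 times that at 0 h, and no step between neighbouring times exceeded the SD between cells. Cells spread more at the end: the coefficient of variation (CV) of Dnmt1 was 21.9% at 0 h and 40.2% at 72 h.

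Dnmt3a averaged 33.2 ± 23.9 TPM at 0 h (lowest 1.56, median 28.2, highest 146.0) and 227.2 ± 117.1 at 12 h (lowest 28.9, median 223.8, highest 550.0), 6.84 times the 0 h mean. At 12 h 63 of 91 cells exceeded the highest 0 h cell and all 91 exceeded the 0 h median. The mean was then 132.3 ± 74.5 at 24 h, 37.8 ± 23.3 at 48 h and 26.5 ± 19.1 at 72 h (lowest 1.26, median 21.4, highest 104.1). Thus the 0, 48 and 72 h levels lay within 1 SD of each other and below those at 12 and 24 h.

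Dnmt3b averaged 29.2 ± 14.7 TPM at 0 h (lowest 2.98, median 27.7, highest 88.6) and 157.0 ± 68.9 at 12 h (23.5, 147.5 and 349.7), 5.37 times the 0 h mean, with 79 of 91 cells above the highest 0 h cell. It was 130.7 ± 81.1 at 24 h, 73.2 ± 72.5 at 48 h and 37.2 ± 35.9 at 72 h (4.27, 24.1 and 192.5). It came down more slowly than Dnmt3a in the means, and unevenly among cells: its CV was 50.5% at 0 h, 43.9% at 12 h and 99.0% at 48 h. At 48 h the lower and upper quartiles were 22.3 and 101.5 TPM, and 26 of 87 cells still exceeded the highest 0 h cell.

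Dnmt3l, the stimulatory partner, already stood at 102.3 ± 69.4 TPM at 0 h (lowest 0, median 86.8, highest 359.1). It was 205.4 ± 113.2 at 12 h (11.4, 207.6 and 517.6), 144.5 ± 88.1 at 24 h, 175.8 ± 106.3 at 48 h and 82.2 ± 82.8 at 72 h (0, 55.1 and 383.1). At 12 h 12 of 91 cells exceeded the highest 0 h cell. The steps from 0 to 12 h and from 48 to 72 h exceeded the smaller but not the larger SD of the times they join, and the other steps exceeded neither. The largest spread came at 72 h, with a CV of 100.7% and quartiles of 15.2 and 133.6 TPM. Dnmt3l was detected at 0.1 TPM or more in 91 of 92 cells at 0 h (exact 95% interval 94.1 to 99.97%, counting error only) and in 92 of 93 at 72 h, and the other 4 members in every cell of the course. Leaving out the 3 to 8 cells of few detected transcripts at each time moved the 12 h mean of Dnmt3a to 236.5 and that of Dnmt3b to 163.7 TPM, and the table of merged gene models, which leaves out some cells, gave lower levels in the same order (Dnmt3a 25.1 TPM at 0 h and 190.8 at 12 h).

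**Figure D1:**
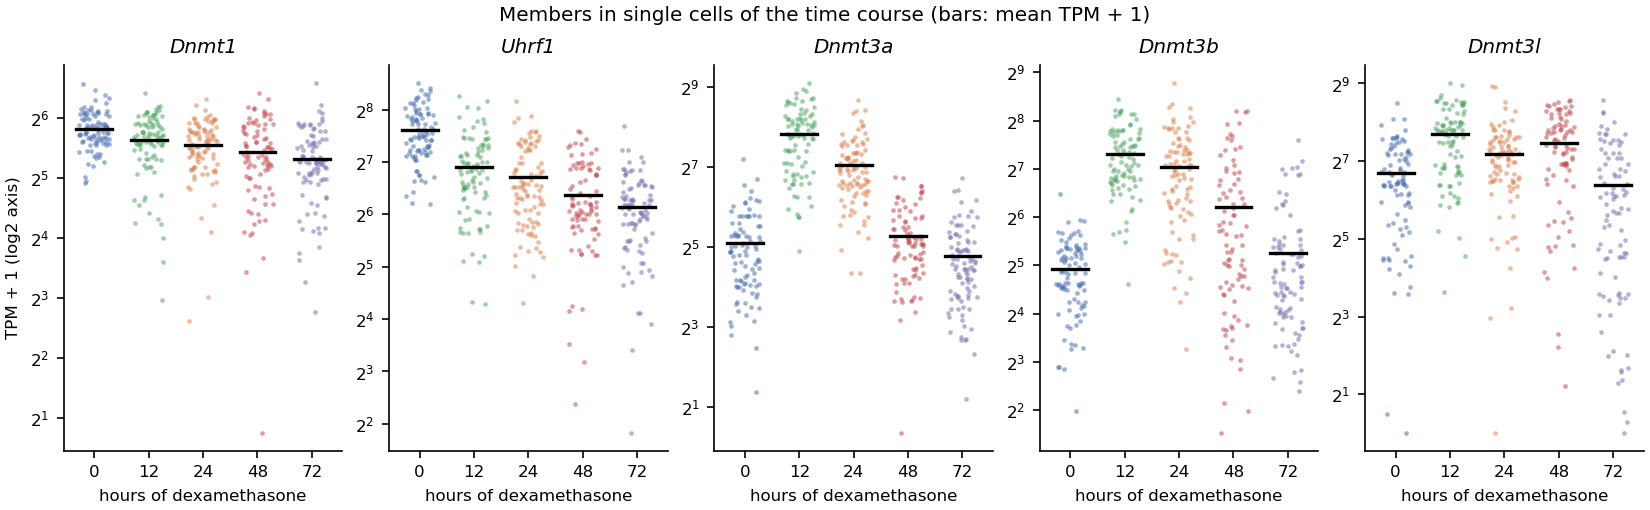
TPM + 1 on a log2 axis (y) of the 5 genes against hours of dexamethasone (x), with 1 point per cell and a bar at the mean TPM + 1 of each time. Dnmt3a and Dnmt3b stand highest at 12 h (means 227.2 and 157.0 TPM) and the cells of Uhrf1 shift down from 193.8 to 69.9 TPM.

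The pairs of genes did not vary together to the same degree in single cells. Pearson correlations of log2(TPM + 1) are descriptions over the cells of 1 time and carry no p. At 0 h the highest among members was that of Dnmt3b with Dnmt3l, 0.561 over 92 cells, and it was 0.60 at 12 h, 0.51 at 24 h, 0.49 at 48 h and 0.27 at 72 h. Dnmt3a with Dnmt3b gave 0.29 at 0 h, 0.43 at 12 h and 0.12 at 48 h, where Dnmt3b ranged over more than Dnmt3a. Dnmt1 with Uhrf1 gave 0.33 at 0 h and 0.73 at 72 h. At 12 and 24 h Dnmt1 followed the number of detected transcripts (0.65 and 0.69), and its correlations at those times share that measure. In the 0 h cells no member correlated beyond 0.25 in size with Prdm14, Dppa3, Nanog, Esrrb or Zfp42.

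**Figure D2:**
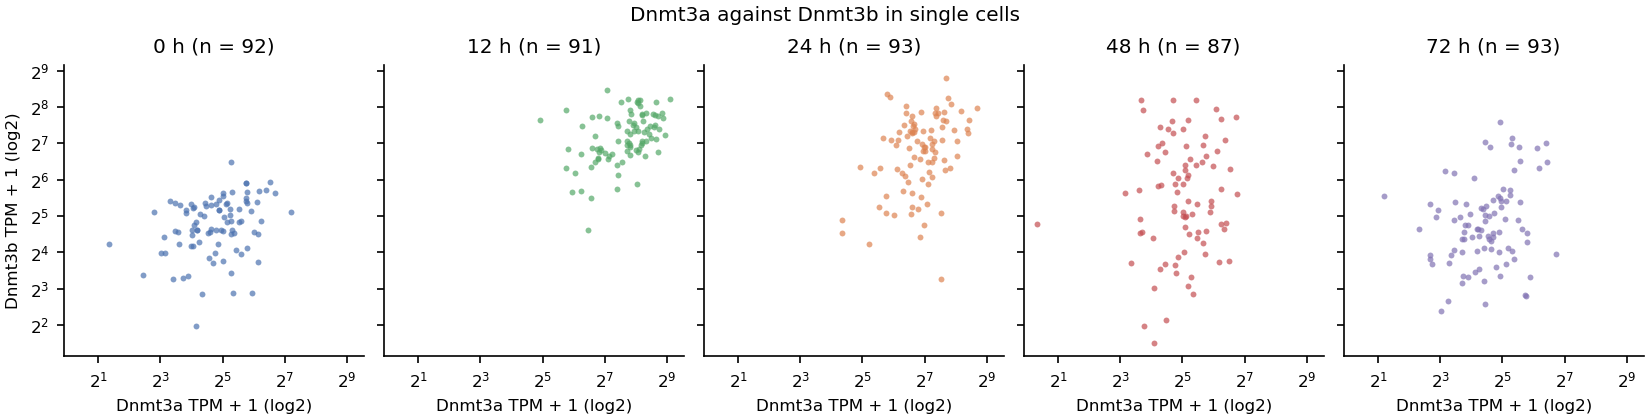
Dnmt3b TPM + 1 (y) against Dnmt3a TPM + 1 (x), both on log2 axes, with 1 point per cell and a panel for each time. The cloud sits low at 0 h, high in both genes at 12 h, and at 48 h it is drawn out along the Dnmt3b axis, where the CV of Dnmt3b was 99.0%.

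The sum of 17 S phase genes (such as the Mcm helicase genes) followed the maintenance pair within every time. Its correlation with Uhrf1 was 0.816 at 0 h and 0.70 to 0.76 afterwards, and with Dnmt1 0.37 at 0 h and 0.70 to 0.82 afterwards. With Dnmt3a it was 0.239, 0.343, 0.514, 0.0902 and -0.214 at 0, 12, 24, 48 and 72 h. With Dnmt3b it was 0.199, 0.359, 0.404, 0.426 and -0.0935, and with Dnmt3l 0.138, 0.284, 0.508, 0.523 and -0.308. The de novo genes thus also followed the S phase sum in part at 24 h, and Dnmt3b and Dnmt3l did so at 48 h as well. Correlations within a time, here and above, kept the cells of few detected transcripts. The part of depth in them was not tested. Over all 456 cells and 6129 protein-coding genes with a mean of at least 10 TPM, the genes most like Uhrf1 were Mcm5 (r = 0.736), Pcna (0.730) and Mcm3 (0.727), and those most like Dnmt1 were Rfc5 (0.751), Rfc2 (0.745) and Mcm5 (0.735), all parts of the replication machinery. Those most like Dnmt3a were Shkbp1 (0.725), Pgd (0.667), an enzyme of the pentose phosphate pathway, and Foxh1 (0.652), a partner of Smad proteins. Those most like Dnmt3b were Fgfr2 (0.725), Epb41l2 (0.693) and Itga3 (0.692), and those most like Dnmt3l were Icosl (0.628), Folr1 (0.575) and Epb41l2 (0.541). Icosl lies 5737 bases beyond Dnmt3l on the same strand of chromosome 10. These correlations pool times and so share the course itself.

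Across the cell cycle of untreated ES cells, Dnmt1 stood highest in S phase and Uhrf1 in G1, from 1 sample of sorted cells per phase and without a test. Dnmt1 averaged 40.9 ± 16.1 TPM in G1 (lowest 15.02, median 37.03, highest 102.5), 59.3 ± 14.6 in S (30.3, 58.7 and 103.0) and 42.8 ± 10.7 in G2M (10.96, 41.5 and 73.5). S was 1.45 times G1, a step of over 1 SD between cells, and G2M lay within 1 SD of G1. Uhrf1 averaged 161.0 ± 98.8 TPM in G1 (14.7, 146.8 and 461.9), 126.0 ± 60.9 in S (29.2, 112.0 and 348.5) and 94.6 ± 45.3 in G2M (27.1, 88.9 and 308.1). Neighbouring phases of Uhrf1 lay within 1 SD of each other. The most Uhrf1-rich and the most Uhrf1-poor cells were both in G1, which cells enter after division and leave when replication begins.

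The de novo genes moved less with phase. Dnmt3a averaged 17.4 ± 11.3 TPM in G1, 14.6 ± 10.3 in S and 19.2 ± 12.1 in G2M. Dnmt3b averaged 13.4 ± 10.8, 10.6 ± 5.90 and 14.9 ± 8.97 TPM, and Dnmt3l 48.3 ± 48.1, 50.8 ± 53.1 and 39.2 ± 34.01. All differences between phases were under 1 SD between cells. These sorted cells read lower than the 0 h cells of the time course for all 3 genes (33.2, 29.2 and 102.3 TPM there), and sort, plate and culture cannot be told apart between them.

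The 9 wells of averaged G1 lysate show the spread that remains without differences between cells. For Dnmt3l the CV was 99.7% in G1 cells and 18.9% in lysate (33.5 to 69.7 TPM), 5.27 times as large in cells. For Dnmt1 the CVs were 39.4% and 11.9%, for Uhrf1 61.3% and 20.5%, and for Dnmt3b 80.7% and 35.7%. Dnmt3a was the exception, at 65.1% in cells and 66.6% in lysate wells (8.30 to 56.1 TPM), so its spread among G1 cells was no larger than that of the measurement. The same gene spread widely in diluted RNA, at 26.1, 48.5 and 114.6 CPM (counts scaled to a common library total) in 3 RamDA-seq libraries from 10 pg.

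**Figure D3:**
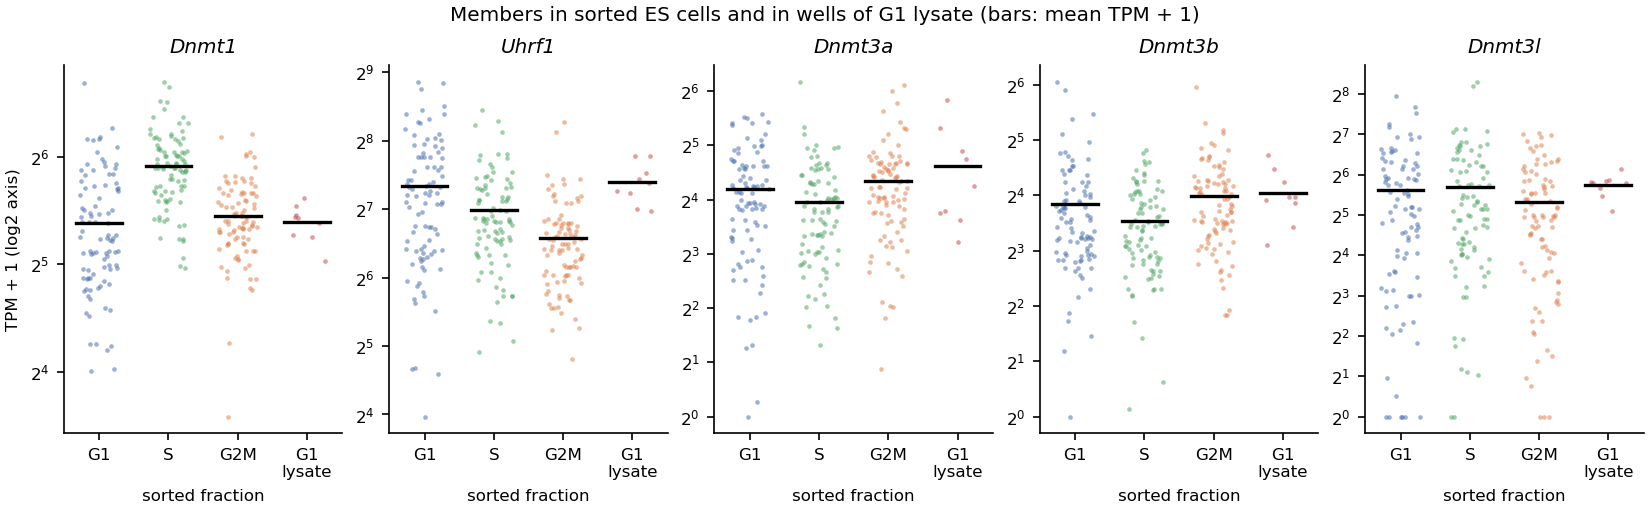
TPM + 1 on a log2 axis (y) of the 5 genes in sorted ES cells of G1, S and G2M and in wells of G1 lysate (x), with 1 point per cell or well and a bar at the mean TPM + 1. Dnmt1 stands highest in S (mean 59.3 TPM), and the lysate wells of Dnmt3a spread as widely as its cells.

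PrE and ES cells were compared on the 4 plates, the only comparison of cells here with replicate plates. It used limma on log2(mean TPM over the wells of a plate + 1) of 16202 genes with Benjamini-Hochberg adjustment. Of the 5 members, 3 were called higher and 1 lower in PrE cells at an adjusted p under 0.05, where 59.2% of all genes tested were called (5627 or 34.7% higher and 3958 or 24.4% lower, median log2 difference 0.09). Without the 30 low wells, 65% of 16451 genes were called and all 5 members passed. Under quantile normalization the split of calls turned to 4906 higher and 5289 lower and the median shifted to -0.05, so member differences near 0.2 depend on the scaling. The wells of a plate are not replicates, and p-values measure the spread between 4 plates of 1 line. Labels name no separate cultures for the plates, so this spread may be technical.

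Dnmt3b means were 16.2, 12.5, 18.7 and 13.3 TPM in ES cells of plates B1, B2, E1 and E2, and 42.4, 35.9, 45.8 and 44.9 TPM in PrE cells of the same plates. Each PrE value lay above every ES value. The log2 difference was 1.43 (SE 0.14; 2.69-fold; limma adjusted p = 2.4e-05; higher on 4 of 4 plates) and 1.38 without the low wells. Dnmt3l means were 98.3, 104.5, 116.4 and 101.3 TPM in ES cells and 211.9, 160.7, 180.8 and 186.1 in PrE cells, again without overlap. The log2 difference was 0.80 (SE 0.10; 1.75-fold; limma adjusted p = 0.00014; 4 of 4 plates) and 0.78 without the low wells.

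Dnmt3a means were 40.7, 30.6, 30.2 and 35.1 TPM in ES cells and 43.5, 53.9, 42.8 and 45.6 in PrE cells. The groups did not overlap, and the log2 difference was 0.44 (SE 0.12; 1.35-fold; limma adjusted p = 0.012). Without the low wells plate B1 stood at 45.3 in ES and 44.6 TPM in PrE cells, the groups overlapped, and the difference was 0.39 (adjusted p = 0.028, limma; higher on 3 of 4 plates). The call was lost without plate B2 (0.32, adjusted p = 0.059), without plate E2 (0.46, adjusted p = 0.05036, just above the threshold) and under quantile normalization (0.23, adjusted p = 0.178), so it rests on the choice of plates and scaling.

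Uhrf1 means were 153.9, 441.7, 181.3 and 171.9 TPM in ES cells and 58.4, 52.7, 69.4 and 59.8 in PrE cells. The 441.7 TPM on plate B2 came from the well of 14850 TPM. Without the low wells the ES means were 163.6, 169.4, 185.9 and 171.9 and the PrE means 60.01, 59.96, 69.97 and 61.8 TPM, far apart on every plate. The log2 difference was -1.83 (SE 0.31; limma adjusted p = 0.00082) with all wells and -1.44 (SE 0.07; 0.37 times ES; adjusted p = 8.3e-08) without the low ones. Dnmt1 means were 47.6, 46.7, 54.3 and 58.2 TPM in ES cells and 47.7, 37.7, 47.5 and 39.6 in PrE cells. These overlapped, with a log2 difference of -0.26 (SE 0.11; limma adjusted p = 0.078). Without the low wells the PrE means were lower on 4 of 4 plates, with a difference of -0.30 (SE 0.07; limma adjusted p = 0.0054).

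**Figure D4:**
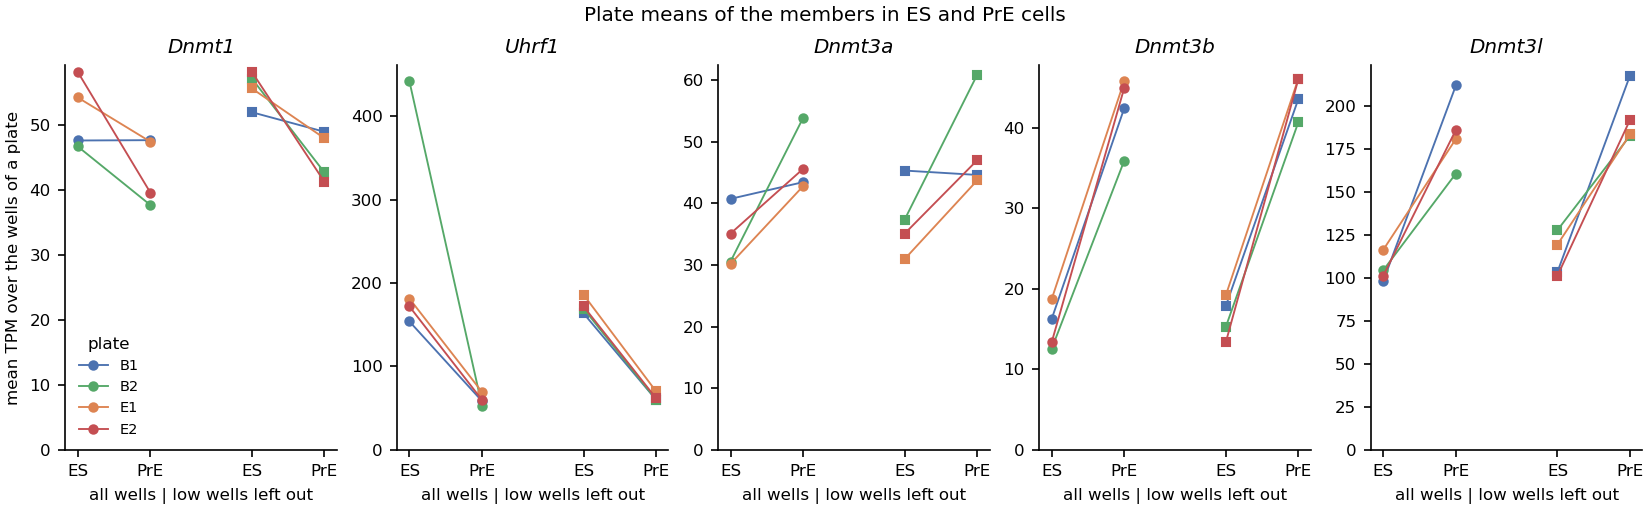
Mean TPM over the wells of a plate (y, from 0) in ES and PrE cells (x) for the 5 genes, with all wells on the left of each panel and the wells of few detected transcripts left out on the right, and a line for each plate. Lines go up on every plate for Dnmt3b and Dnmt3l, and the single high ES point of Uhrf1 (441.7 TPM, plate B2) disappears without the low wells.

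The plates and the time course placed some members differently. PrE cells after 72 h stood above ES cells for Dnmt3a and Dnmt3l on the plates (1.35-fold and 1.75-fold), whereas 72 h stood at 0.80 times 0 h for both genes in the time course. For Dnmt3b the ratios were 2.69 and 1.27. On the C1 chip, with 1 capture and no test, PrE and ES cells averaged 51.1 ± 38 and 37.8 ± 34.9 TPM for Dnmt3a, 83.7 ± 56.9 and 28.9 ± 19.01 for Dnmt3b, and 196.3 ± 112.4 and 138.3 ± 97.9 for Dnmt3l. Uhrf1 averaged 81.9 ± 34.1 in PrE and 241.1 ± 109.8 TPM in ES cells there, and Dnmt1 47.7 ± 20.8 and 68.2 ± 24.6. The chip thus had the directions of the plates for all 5 genes, and the difference between plates and time course was not tested.

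The transcripts of the members showed shifts that the gene totals hide. The estimates divide reads among overlapping models: Uhrf1-002 and Uhrf1-004 have no base that another model lacks, and are told apart by their combination of exons. Of 48 member transcripts 27 reached a mean of 1 TPM on the plates and 16 were called, 10 higher and 6 lower, where 49.1% of 38573 transcripts were called (30% higher and 19.1% lower). Uhrf1-002, with the upstream exon and without the 24 bases, had plate means of 48.4, 34.6, 46.8 and 51.01 TPM in ES and 4.61, 2.17, 6.36 and 4.39 in PrE cells (log2 difference -3.15, SE 0.24, limma adjusted p = 5.1e-06). Uhrf1-004, with the downstream exon and the 24 bases, had 76.6, 81.6, 105.2 and 94.4 TPM in ES and 44.7, 39.4, 47.99 and 43.8 in PrE cells (-1.001, SE 0.12, limma adjusted p = 0.00012). Both models were lower without overlap. Uhrf1-003, with the downstream exon and without the 24 bases, averaged 3.27 TPM in ES and 7.34 in PrE cells (1.11, limma adjusted p = 0.034), a call lost without plate B2 (adjusted p = 0.074) or E1 (0.130). The retained-intron model Uhrf1-007 held 308.3 TPM on plate B2 in ES cells, and without the low wells it averaged 7.40 TPM in ES and 1.01 in PrE cells (-2.08). For Uhrf1-002 and Uhrf1-004 the shares of the gene are compared next.

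As shares of the gene on each plate, Uhrf1-002 held 30.5, 24.9, 25.8 and 29.7% in ES and 7.88, 4.16, 7.63 and 7.53% in PrE cells without the low wells, and Uhrf1-004 held 50.1, 59, 58.1 and 54.9% against 76.5, 74.6, 70.2 and 72.96%. Neither pair of groups overlapped (exact permutation p = 0.0286, two-sided, the smallest that 4 against 4 plates can give; 0.091 after adjustment over 16 isoforms). With all wells Uhrf1-002 held 7.83% on plate B2 and the groups overlapped (exact permutation p = 0.0857). None of the 16 isoforms passed an adjusted p of 0.05 (0.00% called), and 4 with all wells and 5 without the low wells were at the smallest p. With 4 plates per group a call needs most of the 16 isoforms at that smallest p. The lack of calls therefore cannot show that the shares were alike.

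Summed by first exon, a grouping chosen after the levels were seen and therefore not tested, the upstream exon gave 36.6% of full-length Uhrf1 at 0 h, 34.1% at 12 h, 23.9% at 24 h, 9.81% at 48 h and 11.8% at 72 h. In TPM the upstream models went from 51.2 to 5.84 and the downstream ones from 88.5 to 43.8. The upstream share was 36.6, 36.8 and 38.3% in G1, S and G2M cells, a narrow range, while on the C1 chip it was 43.4% in ES and 13.2% in PrE cells. Without the low wells it was 29.95 to 36.8% on the 4 plates of ES cells and 5.2 to 9.3% on those of PrE cells. Models with the 24 added bases made up 66.2% at 0 h and 81.5% at 48 h, and since Uhrf1-002 lacks both the downstream exon and the added bases, these shares are not separate observations.

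Full-length Dnmt3a models also moved between starts, again in a grouping chosen after the levels were seen and not tested. Models of the internal start averaged 4.39 TPM at 0 h, 39.1 at 12 h, 14.3 at 24 h, 2.18 at 48 h and 1.04 at 72 h, and those of the upstream starts 1.71, 13.7, 11.9, 5.03 and 3.44. The internal share was 72.0, 74.1, 54.6, 30.3 and 23.2% in this order. Both starts thus read highest at 12 h, and at 72 h the upstream ones were above their 0 h mean and the internal one below it. On the plates without the low wells the internal share was 32.2 to 48.5% in ES and 9.5 to 22.4% in PrE cells, and on the C1 chip 55.95 and 32.99%. Dnmt3a-006, which begins upstream, was at 1.72, 1.14, 1.22 and 1.44 TPM in ES and 2.78, 2.72, 3.11 and 2.49 TPM in PrE cells (log2 difference 0.67, SE 0.12, limma adjusted p = 0.0011). These models are low, and on the plates neither Dnmt3a-005 nor Dnmt3a-201 of the internal start reached the mean of 1 TPM over all wells needed for a test. Without the low wells Dnmt3a-005 did, at 1.004, 1.29, 1.25 and 1.55 TPM in ES and 0.922, 0.395, 0.679 and 0.956 TPM in PrE cells. It was called lower in PrE cells there, without overlap (log2 difference -0.39, SE 0.14, limma adjusted p = 0.040). Most of the Dnmt3a signal lay elsewhere: Dnmt3a-015 and Dnmt3a-016, short models of 502 and 501 bases inside the gene, held 27.02 and 39.7% of Dnmt3a TPM at 0 h, and neither was called on the plates (adjusted p = 0.271 and 0.096, limma).

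**Figure D5:**
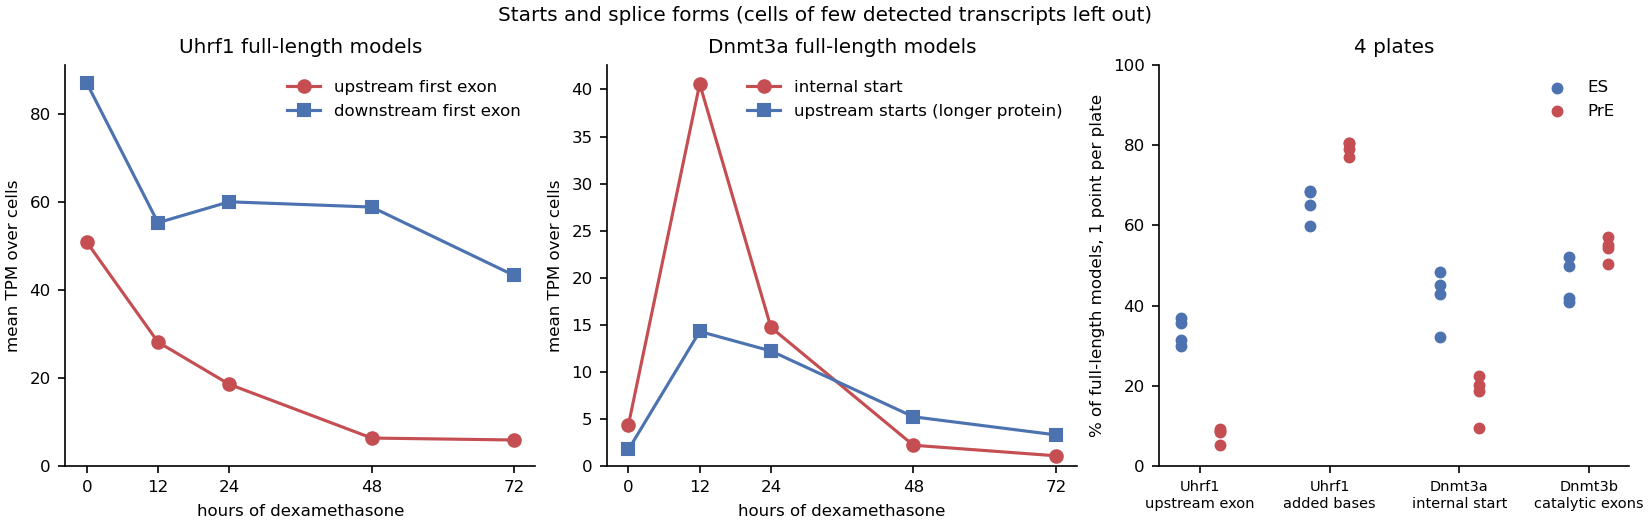
Mean TPM over cells (y) of full-length Uhrf1 and Dnmt3a models grouped by start against hours of dexamethasone (x), and the percent of full-length models with each feature on the 4 plates (1 point per plate), all without cells of few detected transcripts. The upstream Uhrf1 exon and the internal Dnmt3a start take smaller shares in PrE than in ES cells on every plate.

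The splice forms of Dnmt3b varied to different degrees, in groupings chosen after the levels were seen and not tested. Models with both catalytic-domain exons made up 53.7, 57.4, 57.4, 55.97 and 57.4% at 0, 12, 24, 48 and 72 h, and models with the 60-base inner exon 91.4, 93.1, 87.5, 91.3 and 87.1%. Models with a leader exon made up 21.4% at 0 h, 29.3% at 12 h, 34.1% at 24 h, 31.3% at 48 h and 34.6% at 72 h. On the plates without the low wells the catalytic pair was at 41 to 52.03% in ES and 50.4 to 57.2% in PrE cells. The inner exon was at 73.5 to 81.9% in ES and 80.3 to 90.6% in PrE cells, and the leader exon at 34.2 to 46.2% and 40.5 to 50.2%, so all 3 ranges overlapped. On the plates 6 Dnmt3b transcripts were called higher, by 0.98 to 1.65 on the log2 scale. Dnmt3b-011, a retained-intron model of 600 bases, was among them, and its share of the gene was 8.01, 6.51, 6.42 and 4.64% in ES and 12.6, 10.5, 12.6 and 13.5% in PrE cells (exact permutation p = 0.0286, adjusted p = 0.114 over 16 isoforms). Dnmt3l-002, the main model of Dnmt3l, was called higher (0.86), as was Dnmt3l-003 (0.66), and Dnmt3l-008, a retained-intron model, was called only with plate as a block (0.87, limma adjusted p = 0.041). Of the Dnmt1 models, Dnmt1-201 averaged 28.5 TPM in ES and 21.8 in PrE cells (-0.36, limma adjusted p = 0.044, a call lost without plate B1, B2 or E2 and without a filter on low values) and Dnmt1-202 22.1 and 20.4 (-0.11, adjusted p = 0.632).

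Bulk and diluted ES RNA show how far the library method moves each member. These are estimated counts per gene in libraries of 5713519 to 8962910 summed counts, tested with edgeR's quasi-likelihood method. All comparisons are between library methods on ES RNA. A level in such RNA does not separate the number of expressing cells from the RNA per cell. All 5 members were lower in rdRNA-seq than in paRNA-seq of 1 µg RNA, where 49.9% of 14347 genes were called. Dnmt1 was at 228.2, 221.5 and 236.3 CPM in rdRNA-seq and 471.8, 473.4 and 478.9 in paRNA-seq (log2 difference after normalization -0.74, SE 0.03, adjusted p = 2.9e-09). Uhrf1 was at 295.2, 296.7 and 301.2 CPM in rdRNA-seq and 579.4, 610.8 and 612.5 in paRNA-seq (-0.70, SE 0.03). Dnmt3l differed by -0.46, Dnmt3a by -0.32 and Dnmt3b by -0.30, each without overlap between the 3 libraries of each method. Main calls were 3420 higher and 3737 lower, and 1399 and 7657 without normalization, under which all 5 members were also lower.

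At 10 pg of input, where RamDA-seq was set against SMART-Seq v4 and 14.1% of 12566 genes were called, Uhrf1 alone passed. It was at 504.4, 577.8 and 481.6 CPM in RamDA-seq and 379.2, 285.6, 476.8 and 370.1 in SMART-Seq v4 (log2 difference 1.13, SE 0.18, edgeR adjusted p = 0.0076), every RamDA-seq library above every SMART-Seq v4 one. The call was lost without normalization beyond library size (0.47, adjusted p = 0.116), and the other members had adjusted p of 0.154 to 0.965, with signs that turned among the alternatives for Dnmt3a, Dnmt3b and Dnmt3l. The split of 934 higher and 832 lower genes became 735 and 1793 without normalization, 2644 and 1395 with DESeq2 and 360 and 633 without a filter. Between RamDA-seq and rdRNA-seq from 1 ng, where 38% of 14769 genes were called (2693 higher and 2921 lower, or 3526 and 2275 without normalization), Uhrf1 was at 695.6 to 725.2 CPM against 415.0 to 453.2 (0.57, SE 0.06, edgeR adjusted p = 4.8e-07). Dnmt3l differed by 0.18 (adjusted p = 0.064; 0.30 and 0.0043 without normalization), and Dnmt1, Dnmt3a and Dnmt3b by -0.13, 0.09 and 0.03 (adjusted p = 0.081, 0.523 and 0.816). Uhrf1 was thus the member called higher in RamDA-seq in both comparisons.

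The partners of the maintenance pair were mostly lower in PrE cells on the plates, with all values log2 differences of plate means by limma. Of 9 partners 7 were called lower, 1 higher and 1 neither (median -0.97, against 0.09 over all genes, of which 24.4% were lower and 34.7% higher). Cdca7, which works with the remodeller Hells, went from 42.2 to 8.81 TPM (-2.13), the histone deacetylase gene Hdac2 from 28.5 to 11.6 TPM (-1.23), and the acetyltransferase gene Kat5 from 9.69 to 13.7 TPM (0.46). Of 17 S phase genes 8 were lower and 2 higher (median -0.52, and -0.08 without the low wells): Mcm2 and Mcm6 differed by -1.37 each, Ccne2 by 0.70 and Rrm1 by 0.51. Of 14 G2 and M phase genes 4 were higher and 1 lower, or 4 and 5 without the low wells, with Ccna2 at 0.72, Cenpe at 0.66 and Ccnb2 at -0.46. The part of phase in the levels of Dnmt1 and Uhrf1 was not tested.

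Genes that guide, oppose or read methylation included calls in both directions, as all genes did (34.7% higher and 24.4% lower). Of 16 genes of histone marks and zinc fingers 7 were higher and 6 lower (median 0.02). The methyltransferase genes Whsc1 and Ehmt2 were higher (1.94 and 1.38, the latter 1.91 without the low wells), and Zfp57, which protects imprinted regions, went from 151.8 to 22.8 TPM (-2.67), with Morc3 at -1.10. Of 8 tested antagonists, of 10 listed, 3 were higher and 4 lower (median -0.73). Prdm14, a repressor of de novo methyltransferase genes in ES cells, went from 8.84 to 0.014 TPM (-3.26), and the dioxygenase gene Tet1 from 81.8 to 9.18 TPM (-3.02), whereas Tet3 differed by 1.21 and Gadd45b by 0.85. In the time course Prdm14 averaged 9.6 TPM at 0 h and 0.1 at 12 h, and Tet1 117.6 and 49.02 TPM. The part of Prdm14 or Tet1 in the levels of the members was not tested. Of 8 methyl-CpG readers 3 were higher and 1 lower (median 0.10), with Zbtb4 at 1.29, Mbd2 at 0.98 and Zbtb38 at -1.65.

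Of 12 genes of methyl donor supply 8 were lower and 2 higher (median -0.54), where 24.4% of all genes were lower and 34.7% higher: Tdh, the threonine dehydrogenase on which mouse ES cells rely, went from 244.8 to 6.61 TPM (-5.03) and the glycine cleavage gene Gldc from 64.2 to 4.60 TPM (-3.56), while Mtr and Mtrr, of methionine synthesis, differed by 1.04 and 0.39. Of 14 germline genes whose promoters are known to be methylated, 4 reached 1 TPM, with 1 higher and 2 lower (median -0.29): Rhox5 went from 21.3 to 131.3 TPM (2.59), and Sycp3 and Mael differed by -1.46 and -0.95. Of the other family genes the tRNA methyltransferase gene Trdmt1 was higher (0.49) and Uhrf2 was not called with all wells (0.42, adjusted p = 0.408) but was higher without the low wells (0.83, adjusted p = 0.00046). Among cell type markers, 8 of 10 ES markers were lower (Sox2 -5.67, Tdgf1 -7.11) and 13 of 14 PrE markers higher (Gata4 7.18, Dab2 7.61). Trophoblast markers gave 1 of 2 tested higher (Gata3 2.47), the 1 feeder marker tested was not called, and no 2-cell-like marker reached 1 TPM.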

How the data were processed

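Single mouse 5G6GR cells and ES RNA libraries were measured by RNA sequencing. The authors estimated transcript levels with sailfish on GENCODE transcripts and ERCC sequences, ignoring strand, and deposited TPM per transcript or gene. For bulk libraries the deposited estimated counts per transcript (reads of the 10 pg and 1 µg libraries had been thinned to equal depth) were summed per gene and rounded to whole numbers. The authors' merged gene models were built with HISAT2 2.0.1 and Cufflinks 2.2.1. From the deposited values, cells were summarised by group (mean, SD, range), and plate means were tested as log2(mean TPM + 1) with limma 3.58.1 over all genes with a mean of at least 1 TPM. Estimated counts were tested with edgeR 4.0.16 (quasi-likelihood), with DESeq2 1.42.0 as an alternative. Isoform shares were tested with two-sided exact permutation tests (scipy 1.17.1). P-values were adjusted by Benjamini-Hochberg. The scripts were tested on simulated data. Members, gene lists and named genes were chosen with earlier results of these data known. Named genes were the members, their isoforms of at least 10% of a gene, at most 2 higher and 2 lower called genes of largest difference per list, and the 3 genes most like each member.

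Each plate held ES and PrE cells, so plate is a shared batch: over 16202 genes, deviations of ES and PrE means correlated within plates by 0.0657, 0.032, 0.0829 and 0.0577 on plates B1, B2, E1 and E2, and no ES plate correlated more with the PrE cells of another plate. Bulk libraries held 5713519 to 8962910 summed estimated counts. Intervals cover counting error only. Labels name no separate cultures for bulk replicates, so their p-values may measure technical spread. The 8 columns that matched no sample were not used, and PrE bulk RNA was not analysed here. Alternatives were other pseudocounts, filters, scalings, a plate block and left-out plates, libraries or wells; the sets of wells under 5000 detected transcripts, and the transcript and share results without low wells, were added after seeing the data.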

Additional observations from a re-analysis of the deposited data

Results flagged for a closer look

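In 5 of 67 groups of 4 to 10 samples a single value stood apart from the others by the gap criterion, where chance gives about 3.35. The ES mean of Uhrf1 was 441.7 TPM on plate B2 against 153.9 to 181.3 on the other plates, and the share of Uhrf1-007 in Uhrf1 was 69.8% on the same plate. Both include the well of 14850 TPM with 41 detected transcripts, without which the B2 mean was 169.4 TPM. The share of Dnmt3a-015 in ES cells was 23.24% on plate E2, that of Dnmt3b-005 was 14.68% on plate B1, and that of Dnmt3l-003 was 22.06% on plate E2.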

How the results depend on the processing

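On the plates Dnmt3b, Dnmt3l and Uhrf1 kept direction and call under all 13 alternatives run. Dnmt3a kept its direction, with 0.32 to 0.55 when a plate was left out (call lost without B2, adjusted p = 0.05858, and E2, 0.05036) and 0.23 (0.178) under quantile normalization. Dnmt1 passed in 4 alternatives: -0.30 without the low wells (adjusted p = 0.0054), -0.30 with plate as a block as well (0.0147), -0.30 without wells under 5000 detected transcripts (0.006756) and -0.46 under quantile normalization (0.0019), and ranged from -0.34 to -0.16 with a plate left out. With plate as a replicate block alone, Dnmt3l-008 passed (0.87, adjusted p = 0.041) and no other member call changed (Dnmt3a adjusted p = 0.028, Dnmt1 0.073). Transcripts called numbered 29128 without a filter against 18922. Uhrf1-003 was lost in 4 alternatives. For RamDA-seq against SMART-Seq v4, calls numbered 4039 with DESeq2, 993 without a filter and 564 to 1972 with a library left out, lowest without a RamDA-seq library (564, 600 and 580), against 1766. The cause was not tested. Bulk replicates share only a number (correlations of deviations -0.0352 to 0.0238), and a replicate block left 334 calls there, with Uhrf1 at 1.17 (adjusted p = 0.108), 7008 for rdRNA-seq against paRNA-seq and 5257 for RamDA-seq against rdRNA-seq. No called result changed sign. Among values past no threshold the sign turned for these. For RamDA-seq against SMART-Seq v4, Dnmt3l was -0.46 without normalization, Dnmt3b 0.0093 with DESeq2, 0.091 with the replicate block and -0.21 to 0.13 with a library left out, and Dnmt3a -0.025 to 1.11 with a library left out (lowest without RamDA-seq replicate 3). For RamDA-seq against rdRNA-seq, Dnmt3b was -0.036 to 0.087 and Dnmt3a -0.031 to 0.17 with a library left out. With a plate left out, Dnmt3b-006 was -0.036 to 0.18, Dnmt3a-011 -0.071 to 0.017 and Dnmt3a-014 -0.15 to 0.18. As mean shares within cells, Dnmt3a-015, Dnmt3a-016 and Dnmt3b-005 differed by 0.25, 0.90 and 0.55 percentage points. Depth and 1 sample per time, phase and chip limit those values to descriptions.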
